A study of Mus musculus with 12 samples.

Results

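Messenger RNA levels of 8 genes of cholesterol synthesis and its feedback control were followed across 12 mouse arrays: Hmgcs1, Idi1, Fdft1, Sqle, Cyp51, Msmo1, Dhcr7 and Insig1. Members were found by symbol, taking every probe set (a group of short probes read as 1 value) whose only listed gene is one of the 8. This found 7 of the 8 genes, with 16 of the 20393 single-symbol probe sets; no probe set with Insig1 as its only symbol was listed, so Insig1 was not analysed here. Hmgcs1 and Fdft1 had 4 probe sets each, Cyp51 had 3, Idi1 had 2, and Sqle, Msmo1 and Dhcr7 had 1 each. Where a gene had several, the brightest over all arrays stood for it, so that 12394 genes were tested, among them the 7.

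The tissue was the CA1 subfield of the hippocampus, dissected at 3 hours of reperfusion after 10 minutes of global cerebral ischemia, or from sham-operated mice. The 4 groups were wild-type sham, wild-type ischemia, SUMO-KD sham and SUMO-KD ischemia, with 3 samples each and 2 brains pooled per sample. SUMO-KD mice are transgenic animals with a knockdown of SUMO, a small ubiquitin-like protein that is attached to other proteins. The labels do not name the promoter of the transgene, the cells it acts in, the strain, the age, or a founder line. Labels call the samples biological replicates but give no litter or surgery day, so p-values measure the spread between these pooled samples. In bulk tissue, fewer cells of a type and less RNA per cell cannot be told apart.

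Cells build cholesterol from acetyl-CoA through mevalonate, isoprenoid diphosphates, squalene and lanosterol. Transcription factors of the SREBP family switch these genes on when membrane sterol runs low: SCAP escorts SREBP to the Golgi for cleavage, and INSIG proteins hold it back when sterol is plentiful. The brain makes nearly all of its own cholesterol, in glia and neurons, because plasma lipoproteins do not cross the blood-brain barrier. Hmgcs1 encodes the synthase of HMG-CoA, Idi1 the isomerase that makes dimethylallyl diphosphate, and Fdft1 squalene synthase. Sqle encodes squalene epoxidase, which prepares squalene for ring closure. Cyp51 (lanosterol 14-alpha-demethylase) and Msmo1 (the sterol C4-methyl oxidase) trim lanosterol, and Dhcr7 makes the last reduction of 7-dehydrocholesterol to cholesterol.

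RefSeq promoter windows (build GRCm38.p6) were held for 6 of the 8 genes, with 1 window each for Hmgcs1, Idi1, Cyp51, Msmo1 and Insig1 and 3 for Dhcr7. The 250 bases before the start site were searched on both strands for the core of the sterol regulatory element bound by SREBP (TCACNCCA), the NF-Y box (CCAAT), the Sp1 box (GGGCGG), the E-box (CACGTG) and the cyclic AMP response element (TGACGTCA). The windows of the 4 genes that rose with ischemia, follow because these genes carry the results, and that of Hmgcs1 because it holds the sterol element core. They read 5′ to 3′ on the strand of the gene up to the base before its start, and capitals mark every match to a searched motif in either orientation. Idi1 is chr13:8885356-8885605 (plus strand), Cyp51 is chr5:4104698-4104947 (minus strand), Msmo1 is chr8:64733579-64733828 (minus strand), Dhcr7 window 3 is chr7:143829964-143830213 (plus strand) and Hmgcs1 is chr13:119690101-119690350 (plus strand).
Idi1: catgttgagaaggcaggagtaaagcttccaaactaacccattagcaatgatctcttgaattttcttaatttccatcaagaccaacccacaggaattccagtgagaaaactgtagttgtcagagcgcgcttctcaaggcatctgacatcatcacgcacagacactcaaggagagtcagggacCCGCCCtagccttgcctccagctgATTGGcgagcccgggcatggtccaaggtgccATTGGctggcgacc
Cyp51: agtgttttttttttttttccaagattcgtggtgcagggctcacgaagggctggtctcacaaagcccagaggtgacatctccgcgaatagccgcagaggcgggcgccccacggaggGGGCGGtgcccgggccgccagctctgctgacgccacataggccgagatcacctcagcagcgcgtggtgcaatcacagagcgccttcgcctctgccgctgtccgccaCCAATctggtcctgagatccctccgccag
Msmo1: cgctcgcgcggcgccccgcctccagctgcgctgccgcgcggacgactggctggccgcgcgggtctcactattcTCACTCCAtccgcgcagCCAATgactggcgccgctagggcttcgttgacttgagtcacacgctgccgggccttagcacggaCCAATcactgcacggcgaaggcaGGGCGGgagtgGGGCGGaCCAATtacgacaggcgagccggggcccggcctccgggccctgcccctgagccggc
Dhcr7, window 3: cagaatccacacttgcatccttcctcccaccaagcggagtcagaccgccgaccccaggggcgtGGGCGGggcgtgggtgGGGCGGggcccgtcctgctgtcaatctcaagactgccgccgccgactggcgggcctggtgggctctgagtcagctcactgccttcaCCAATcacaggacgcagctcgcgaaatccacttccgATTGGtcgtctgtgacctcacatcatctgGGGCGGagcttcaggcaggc
Hmgcs1: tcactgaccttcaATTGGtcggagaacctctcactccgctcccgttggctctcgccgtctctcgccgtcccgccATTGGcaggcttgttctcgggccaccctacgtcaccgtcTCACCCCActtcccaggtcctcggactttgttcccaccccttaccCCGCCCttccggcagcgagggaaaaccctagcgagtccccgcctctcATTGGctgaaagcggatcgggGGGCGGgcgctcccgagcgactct

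All 6 genes had an NF-Y box and an Sp1 box in at least 1 window, and in each gene 1 window held both. For Dhcr7 this was window 3. Over 32817 RefSeq windows of the same length, 33.8% held the NF-Y letters, 32.7% held the Sp1 letters, and 11.0% held both. Per gene, 12.5% of 26994 genes had a window with both. The strict sterol element core was found in 2 of the 8 windows, at 137 to 130 bases before the start of Hmgcs1 and at 177 to 170 bases before that of Msmo1, against 3.67% of all windows. E-boxes were found in window 2 of Dhcr7 and in Insig1, against 6.02%, and no member window held the cyclic AMP element, which 1.55% of all windows held. No searched motif contains the letters of another. Matches are a description of the letters in these windows and no site of binding.

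With ischemia in wild-type mice, 4 of the 7 measured genes rose and none fell: Idi1, Cyp51, Msmo1 and Dhcr7. Their changes ran from 0.42 to 0.72 in log2(intensity + 32), the scale of all differences here, or 1.34-fold to 1.65-fold. The other members, Hmgcs1, Fdft1 and Sqle, did not pass an adjusted p of 0.05. Over all genes, 9.60% were called higher and 8.88% lower in this comparison (limma, Benjamini-Hochberg adjustment over all genes). The same 4 genes had every ischemia array above every sham array, a pattern seen in 15.6% of all genes. The members' median change was 0.42, against -0.04 over all genes.

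**Figure D1:**
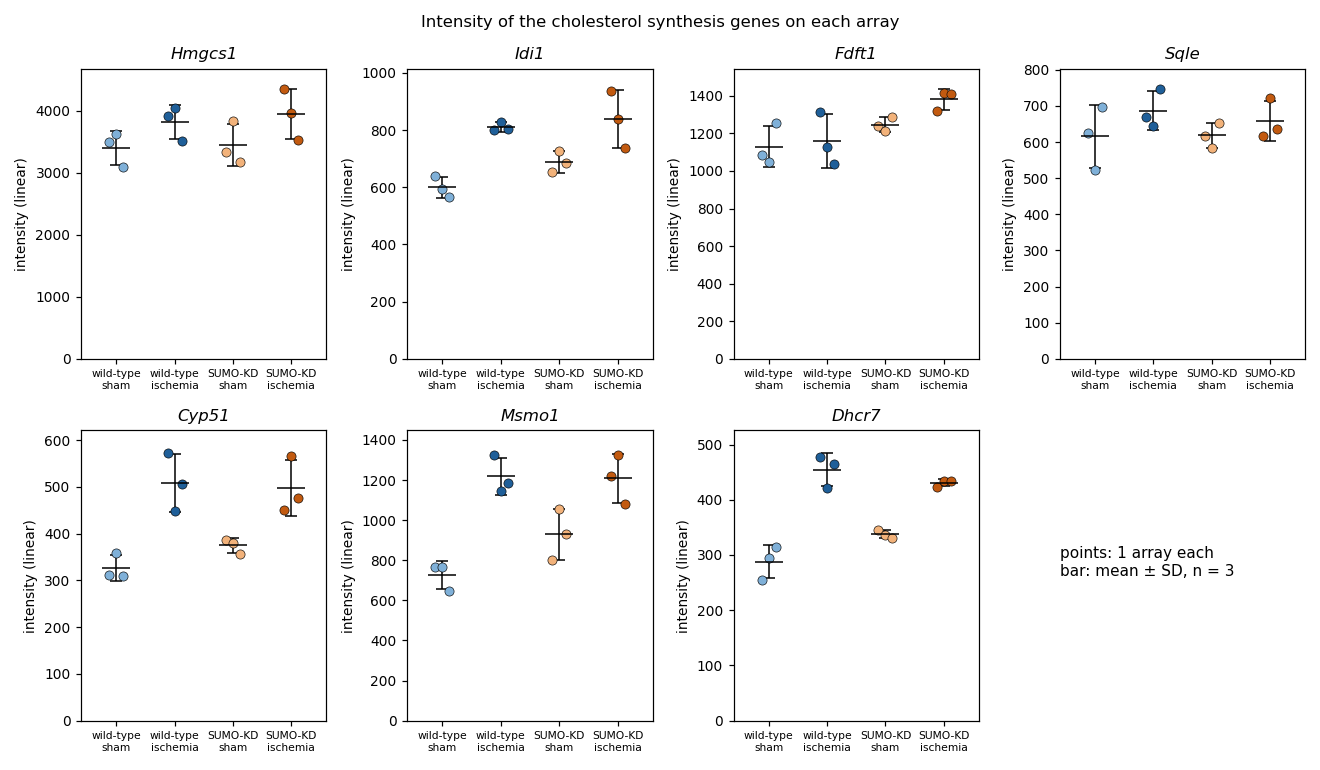
Linear intensity (y axis) of the 7 measured genes in each of the 4 groups (x axis), with 1 point per array and a bar for the mean ± SD of 3 arrays. Idi1, Cyp51, Msmo1 and Dhcr7 are lowest in wild-type sham and highest in both ischemia groups, with SUMO-KD sham between; Hmgcs1, Fdft1 and Sqle show groups that overlap in wild-type.

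At the entry of the pathway, Hmgcs1 read 3498.8, 3614.8 and 3090 in wild-type sham and 3904.9, 4043.1 and 3504.4 after ischemia. In SUMO-KD mice it read 3338.4, 3823.9 and 3175 in sham and 4341.4, 3959.4 and 3531.5 after ischemia. The highest sham array lay above the lowest ischemia array in both genotypes. Its change was 0.17 (SE 0.11, adjusted p = 0.346) in wild-type and 0.19 (SE 0.11, adjusted p = 0.328) in SUMO-KD mice.

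Idi1, the isomerase, read 637.8, 594.7 and 566.7 in wild-type sham and 798.6, 829.6 and 804.9 after ischemia. SUMO-KD sham arrays read 653.1, 728 and 684.5, and SUMO-KD ischemia arrays 938.3, 840 and 738. Sham and ischemia arrays were apart in both genotypes, and the SUMO-KD ischemia arrays spread widely (839 ± 100.1, SD, n = 3, against 811 ± 16.4 in wild-type). It rose by 0.42 (SE 0.10, adjusted p = 0.0115) in wild-type, and the change in SUMO-KD mice was 0.27 (SE 0.10, adjusted p = 0.106).

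At the squalene steps, Fdft1 read 1084.1, 1049.8 and 1255.7 in wild-type sham and 1315.8, 1128.7 and 1036.6 after ischemia. SUMO-KD arrays read 1237.6, 1213.4 and 1288.6 in sham and 1317.2, 1415 and 1411.9 after ischemia. Wild-type groups overlapped, while the 3 SUMO-KD ischemia arrays were above the 3 SUMO-KD sham arrays. The change was 0.03 (95% interval -0.19 to 0.26, adjusted p = 0.866) in wild-type and 0.14 (-0.08 to 0.37, adjusted p = 0.449) in SUMO-KD mice. Sqle read 626.1, 523.7 and 697.2 in wild-type sham and 669.3, 644.1 and 746.9 after ischemia, and in SUMO-KD mice 618.1, 584.4 and 653.2 in sham and 617.4, 721.6 and 636.7 after ischemia. All 4 groups overlapped. Its change was 0.16 (-0.09 to 0.40, adjusted p = 0.384) in wild-type and 0.08 (-0.16 to 0.33, adjusted p = 0.722) in SUMO-KD mice.

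Among the enzymes after ring closure, Cyp51 read 312.4, 357.8 and 308.7 in wild-type sham and 571.9, 447.8 and 506 in wild-type ischemia, or 326 ± 27.3 against 509 ± 62.1 (SD, n = 3). In SUMO-KD mice it read 387.4, 381 and 356.4 in sham and 451.2, 565.7 and 476.8 after ischemia. Ischemia arrays were above sham arrays in each genotype. The gene rose by 0.59 (SE 0.11, adjusted p = 0.00387) in wild-type, and the change in SUMO-KD mice, 0.38 (SE 0.11), had an adjusted p of 0.0535.

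Msmo1 had the largest change of the 7 in wild-type. It read 767.4, 767.2 and 648.1 in wild-type sham and 1323.6, 1143.5 and 1187.5 after ischemia, a rise of 0.72 (SE 0.12, adjusted p = 0.0019). SUMO-KD sham arrays read 800.5, 1055.4 and 931.9, all above the wild-type sham arrays, and SUMO-KD ischemia arrays read 1222.1, 1324.4 and 1080.9. Sham and ischemia did not overlap in SUMO-KD mice, but the gap between 1055.4 and 1080.9 was narrow, and the change there was 0.37 (SE 0.12, adjusted p = 0.0755).

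Dhcr7 read 255.6, 294.4 and 314.4 in wild-type sham and 478, 420.8 and 464.3 in wild-type ischemia, and rose by 0.61 (SE 0.09, adjusted p = 0.000813). SUMO-KD sham arrays read 345.5, 335.9 and 331.2 and SUMO-KD ischemia arrays 423.5, 434.7 and 433.8. The SUMO-KD groups were tight, 338 ± 7.26 and 431 ± 6.23 (SD, n = 3), and well apart. Dhcr7 was the 1 member called in SUMO-KD mice, with a rise of 0.32 (SE 0.09, adjusted p = 0.0369).

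In SUMO-KD mice as a whole, 1 of 7 members was called higher, against 6.09% of all genes, and none lower, against 4.62%. Sham and ischemia arrays did not overlap for 5 of 7 members, the 4 above and Fdft1, against 13.9% of all genes. The median change of the members was 0.27, against -0.02 over all genes. The Dhcr7 call did not hold when any 1 SUMO-KD array was left out. Its adjusted p was then 0.0805, 0.0959 and 0.102 without sham replicates 1, 2 and 3, and 0.0625, 0.11 and 0.103 without ischemia replicates 1, 2 and 3, with changes of 0.31 to 0.34. It also missed the threshold after centring each array on its median (adjusted p = 0.0888) and in a fit of the 2 SUMO-KD groups alone (adjusted p = 0.0537). In the mean of both genotypes' responses on the probe sets used, Idi1 (0.34, adjusted p = 0.00316), Cyp51 (0.48, 0.000913), Msmo1 (0.55, 7e-04) and Dhcr7 (0.47, 0.000239) rose, 4 of 7 members against 12.8% of all genes.

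In rank order from the largest rise among the 12394 genes in wild-type, Msmo1 was 546, Dhcr7 731, Cyp51 769 and Idi1 1291. Hmgcs1 was 3041, Sqle 3142 and Fdft1 4837. In SUMO-KD mice Cyp51 was 1197, Msmo1 1213, Dhcr7 1438 and Idi1 1784. Hmgcs1 was 2474, Fdft1 3083 and Sqle 3952 there.

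Between genotypes in sham, no member was called, against 2.10% of all genes. On the probe sets used, all 7 differences, SUMO-KD minus wild-type, were above 0, with a median of 0.19, against -0.01 over all genes. Of 11 other measured enzymes of the synthesis route, 9 were above 0 too, with a median of 0.15, and none was called. Hmgcs1 and Sqle gave 0.02 and 0.01 (adjusted p = 0.964 and 0.973). Of all 16 member probe sets, 10 gave differences above 0, and the other Hmgcs1 probe sets gave -0.11, -0.02 and -0.05. Msmo1 was 0.34 higher (adjusted p = 0.226), Dhcr7 0.21 (adjusted p = 0.309), Idi1 0.19 (adjusted p = 0.414) and Cyp51 0.19 (adjusted p = 0.51). SUMO-KD sham arrays lay above all wild-type sham arrays for 3 of 7 members, Idi1, Msmo1 and Dhcr7, against 11.0% of all genes. At an unadjusted p under 0.05 there were 2 members, Msmo1 and Dhcr7, against 14.2% of all genes. After ischemia, the median difference between genotypes was -0.01, and 0 members were called, against 1.56% of all genes. Fdft1 had the widest difference there, 0.25 (95% interval 0.03 to 0.48, adjusted p = 0.268). On the probe sets used, it was the 1 member at an unadjusted p under 0.05, against 15.5% of all genes. For the 4 genes that rose with ischemia, the probe sets used gave differences of -0.07 to 0.04, with groups that overlapped. Dimmer probe sets of Cyp51 and Idi1 gave -0.36 and -0.28 (unadjusted p = 0.0052 and 0.116, adjusted p = 0.153 and 0.493 over all probe sets). On that Cyp51 probe set, all SUMO-KD ischemia arrays lay below all wild-type ischemia arrays.

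The difference between the genotypes' ischemia responses, SUMO-KD minus wild-type, was called for 0 members, against 0.0161% of all genes (2 genes). Dhcr7 had a difference of -0.28 (95% interval -0.55 to -0.01, unadjusted p = 0.0441, adjusted p = 0.797). On the probe sets used, it was the 1 member with an unadjusted p under 0.05, against 6.18% of all genes. For Msmo1 the difference was -0.35 (-0.72 to 0.03, adjusted p = 0.825), for Cyp51 -0.21 (-0.56 to 0.13, adjusted p = 0.901) and for Idi1 -0.15 (-0.45 to 0.15, adjusted p = 0.912). The dimmer Cyp51 probe set gave -0.47 (unadjusted p = 0.00804, adjusted p = 0.689 over all probe sets). The genotype and ischemia comparisons share groups. A low wild-type sham value moves the genotype difference in sham, the wild-type response and the difference between the responses, but not the SUMO-KD response. SUMO-KD sham arrays likewise enter the genotype difference in sham, the SUMO-KD response and the difference between the responses. Averaged over the 7 members and set to a mean of 0 in wild-type sham, the log2 level ran from 0.12 to 0.20 in the SUMO-KD sham arrays, from 0.33 to 0.46 after ischemia in wild-type mice and from 0.33 to 0.48 in SUMO-KD mice. In this average the group order was wild-type sham, then SUMO-KD sham, then both ischemia groups, which overlapped. Not every member followed it: SUMO-KD sham arrays lay on both sides of 0 for Hmgcs1 (-0.10 to 0.17) and Sqle (-0.06 to 0.09). Fdft1 ran from -0.12 to 0.22 in wild-type ischemia, against 0.10 to 0.19 in SUMO-KD sham.

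Of the 16 probe sets, 13 had a change above 0 in wild-type and 14 in SUMO-KD mice, with unequal sizes. On their own, 6 of 16 were called higher in wild-type, against 9.15% of all single-symbol probe sets, 3 of 16 in SUMO-KD mice, against 5.42%, and 0 lower. The second probe set of Cyp51, dimmer than the one used, read 112.6, 125.8 and 116.6 in wild-type sham and 370.2, 358.8 and 321.1 after ischemia. In SUMO-KD mice it read 125.7, 146.4 and 120.8 in sham and 230.3, 276.1 and 292.4 after ischemia. This probe set differed between genotypes after ischemia by -0.36, SUMO-KD minus wild-type, and was not called (adjusted p = 0.153). Its change was 1.34 (adjusted p = 1.09e-05 over all probe sets) in wild-type and 0.87 (adjusted p = 0.000396) in SUMO-KD mice, more than 1.5 times the changes of the brighter Cyp51 probe set. The difference between these responses, -0.47, had an adjusted p of 0.689.

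**Figure D2:**
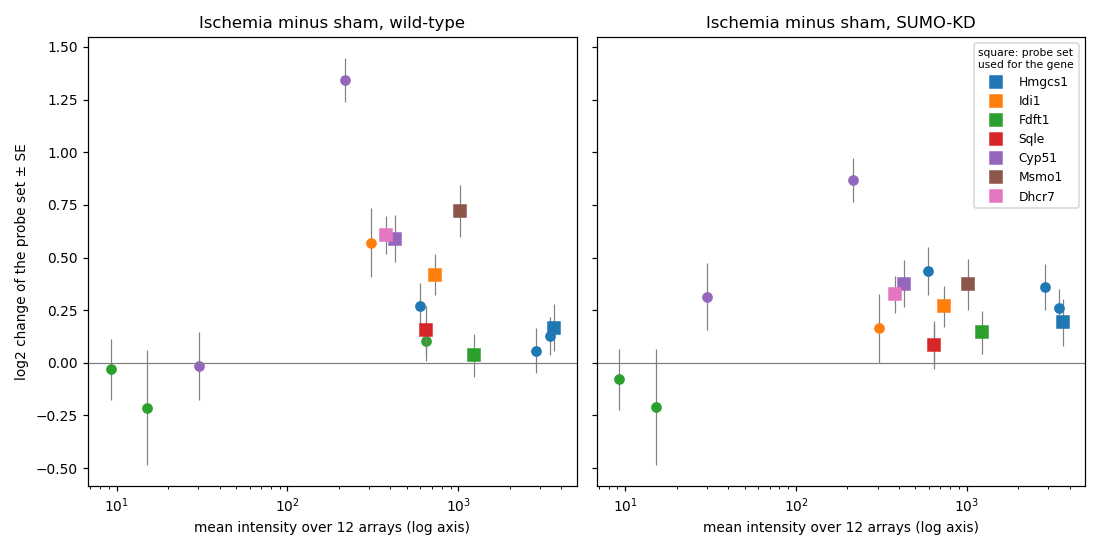
Change with ischemia (y axis, log2(intensity + 32), ± SE) of each of the 16 member probe sets against its mean intensity over 12 arrays (x axis, log scale), in wild-type (left) and SUMO-KD mice (right); squares are the probe sets used for the gene tests. The Cyp51 circle at 1.34 and 0.87 stands above all others, and the Fdft1 and Cyp51 circles at the far left are too dim to read.

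For Idi1 the dimmer probe set rose by 0.57 (adjusted p = 0.0366) in wild-type, and gave 0.16 (adjusted p = 0.641) in SUMO-KD mice. The probe sets used for Hmgcs1 and Fdft1 carry the suffix that marks probes shared with other transcripts. A further Hmgcs1 probe set read 443.5, 567.1 and 519.1 in SUMO-KD sham and 734.6, 755.1 and 612.6 in SUMO-KD ischemia, and rose by 0.44 (adjusted p = 0.0338). In wild-type the same probe set gave 0.27 (adjusted p = 0.137). The remaining bright Hmgcs1 probe sets gave 0.36 (adjusted p = 0.0638) and 0.26 (adjusted p = 0.104) in SUMO-KD mice and 0.06 and 0.13 in wild-type. For the mean of both responses, these gave 0.21 (adjusted p = 0.0706) and 0.19 (adjusted p = 0.0453). The further probe set gave 0.35 (adjusted p = 0.00755) and the one used 0.18 (adjusted p = 0.13), all over all probe sets. The second bright Fdft1 probe set gave 0.10 and 0.08 in wild-type and SUMO-KD mice. Both other Fdft1 probe sets (1.6 to 39.2) and the third Cyp51 probe set (13.2 to 47.4) were too dim on all arrays to read a change from.

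Of 14 further enzymes of the route, 11 were measured. In wild-type 2 rose and 2 fell, and in SUMO-KD mice 1 rose and 1 fell, with medians of 0.08 and -0.01. Over all genes, 9.60% were called higher and 8.88% lower in wild-type, and 6.09% higher and 4.62% lower in SUMO-KD mice. The same shares stand beside the counts of the gene groups that follow. Sc5d, the sterol desaturase that makes the substrate of Dhcr7, read 448.1, 420.4 and 474.8 in wild-type sham and 656.4, 672.7 and 571.9 after ischemia. It rose by 0.47 (adjusted p = 0.00509) in wild-type and by 0.37 (adjusted p = 0.027) in SUMO-KD mice. Averaged over its probe sets, Sc5d had a change of 0.13 in both (adjusted p = 0.316 and 0.408). Pmvk, phosphomevalonate kinase, rose by 0.45 in wild-type (adjusted p = 0.0247), and its change in SUMO-KD mice was 0.19 (adjusted p = 0.39).

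Fdps, the synthase of farnesyl diphosphate that feeds Fdft1, went the other way. It read 508.4, 500.3 and 543 in wild-type sham and 307.9, 366.8 and 363.3 after ischemia, and fell by 0.54 in wild-type (adjusted p = 0.00293) and by 0.40 in SUMO-KD mice (adjusted p = 0.0237). Tm7sf2, a sterol C14 reductase that acts on the product of Cyp51, fell by 0.54 in wild-type (adjusted p = 0.0108), and its change in SUMO-KD mice was -0.24 (adjusted p = 0.264). Calls of both genes in wild-type held in all 12 omissions of 1 array. The Pmvk call did not hold without wild-type sham replicate 1 or 2 or wild-type ischemia replicate 1 or 3 (adjusted p up to 0.0907), or with the wild-type groups fitted alone (0.0938). In SUMO-KD mice the Fdps call was lost without sham replicate 1 or 3 or ischemia replicate 2 or 3 (up to 0.0879), with the 2 SUMO-KD groups fitted alone (0.0597), and when averaged over its probe sets (-0.20, 0.129). The Sc5d call was lost there without sham replicate 1, 2 or 3 or ischemia replicate 1 or 2 (up to 0.111), after median centring (0.0853) and with those groups alone (0.0599). Lss, lanosterol synthase, and Mvd, which decarboxylates mevalonate diphosphate, passed only for the mean of both responses (0.29, adjusted p = 0.026, and 0.38, adjusted p = 0.0484).

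**Figure D3:**
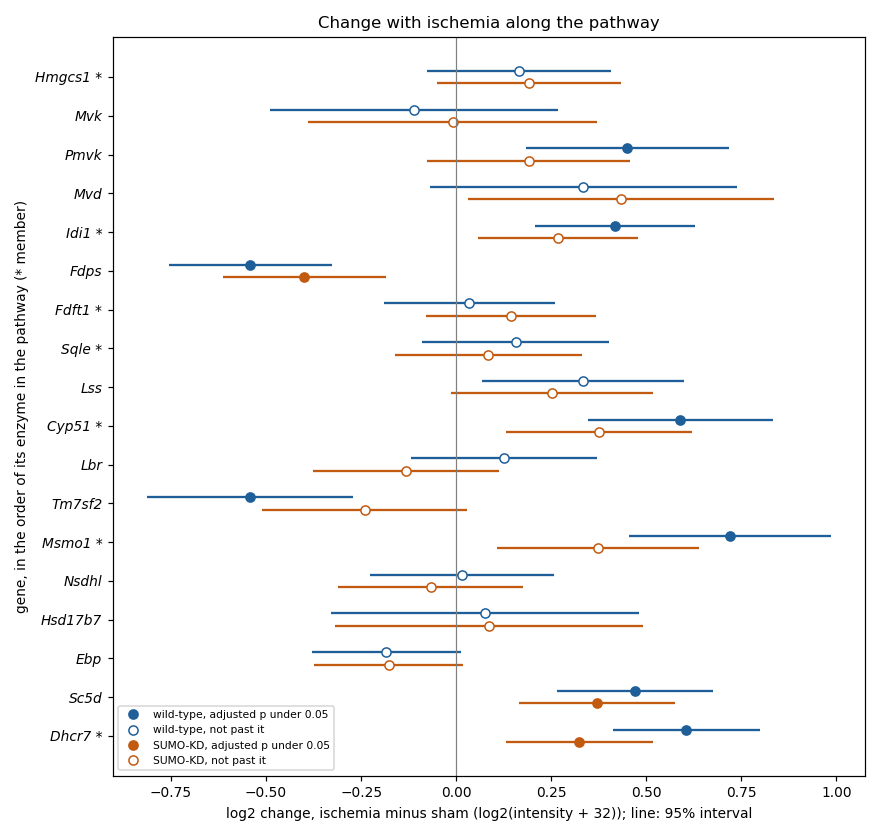
Change with ischemia (x axis, log2(intensity + 32), line for the 95% interval) of the enzymes in the order in which they act (y axis), in wild-type and SUMO-KD mice, with filled points where the adjusted p was under 0.05. Idi1, Cyp51, Msmo1, Sc5d and Dhcr7 lie to the right in both genotypes, while Fdps and Tm7sf2 lie to the left. Pmvk, Mvd and Lss also lie to the right in both, and Ebp to the left.

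Branches that leave the pathway before squalene were measured through 5 of 8 genes, with medians of -0.01 in wild-type and -0.18 in SUMO-KD mice. In wild-type 0 rose and 2 fell, and in SUMO-KD mice none passed. Those that fell encode the subunits of farnesyltransferase: Fntb by 0.50 (adjusted p = 0.0195) and Fnta by 0.25 (adjusted p = 0.0391). The Fnta call was lost without any 1 of the 6 sham or 3 wild-type ischemia arrays (adjusted p up to 0.125), and the Fntb call without wild-type sham replicate 2 or wild-type ischemia replicate 1 or 3 (up to 0.0764). Both were lost with the wild-type groups fitted alone (0.104 and 0.0688).

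Of 11 genes that regulate SREBP, 6 were measured. In wild-type 1 rose and 2 fell, and in SUMO-KD mice none rose and 1 fell, with medians of -0.28 and -0.10. Srebf2, which encodes the main SREBP of cholesterol synthesis, had a change of -0.24 (adjusted p = 0.163) in wild-type and -0.13 (adjusted p = 0.517) in SUMO-KD mice. Srebf1 had changes of -0.50 (adjusted p = 0.0541) and -0.37 (adjusted p = 0.197), and fell in the mean of both responses, by 0.44 (adjusted p = 0.0164). For Insig2, the relative of Insig1, they were -0.01 and -0.06. Scap, the escort of SREBP, read 1256.2, 1285.3 and 1247 in wild-type sham and 929.5, 872.1 and 969.3 after ischemia, a fall by 0.44 (adjusted p = 0.00786). Its change in SUMO-KD mice was -0.06 (adjusted p = 0.785).

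Mbtps1, the first protease that cleaves SREBP, fell by 0.32 in wild-type (adjusted p = 0.0318) and by 0.42 in SUMO-KD mice (adjusted p = 0.0127). Erlin1, an endoplasmic reticulum protein of sterol feedback, rose by 0.74 in wild-type (adjusted p = 0.0159), with 1 ischemia array at 1299.1 against 767 and 813.5, and its change in SUMO-KD mice was 0.42 (adjusted p = 0.182). The Erlin1 call was lost without wild-type sham replicate 2 or 3 (up to 0.0531). For Mbtps1 it was lost in wild-type without sham replicate 1 or 3 or ischemia replicate 1 or 2 (up to 0.12), and in SUMO-KD mice without sham replicate 3 (0.0535). Averaged over its probe sets, Mbtps1 had changes of -0.07 (adjusted p = 0.764) and -0.02 (adjusted p = 0.962), so both calls rest on the brightest probe set. With the wild-type groups fitted alone, the Erlin1 and Mbtps1 calls there were also lost (0.0606 and 0.0919).

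Uptake and transport inside the cell were measured through 9 of 11 genes. In wild-type 2 rose and 1 fell, and in SUMO-KD mice 1 rose and none fell, with medians of -0.13 and 0.11. Vldlr, a receptor for apolipoprotein E particles, rose by 0.77 in wild-type (adjusted p = 0.000613), and its change in SUMO-KD mice was 0.29 (adjusted p = 0.12). Scarb1, a receptor for high-density lipoprotein, rose by 0.40 (adjusted p = 0.01) and by 0.43 (adjusted p = 0.00987) in wild-type and SUMO-KD mice. Averaged over its probe sets it had changes of 0.28 and 0.29 and missed the threshold in both (adjusted p = 0.0516 and 0.0616). Lrp1, an endocytic receptor, fell by 0.36 in wild-type (adjusted p = 0.0177), a call lost without sham replicate 3 or ischemia replicate 1 (up to 0.072), or with the wild-type groups fitted alone (0.0606).

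Efflux, sterol sensing and turnover were measured through 11 of 13 genes, with medians of -0.14 in wild-type and -0.09 in SUMO-KD mice. In wild-type 1 rose and 1 fell, against 9.60% and 8.88% of all genes. In SUMO-KD mice 1 rose, against 6.09% of all genes. Ch25h, cholesterol 25-hydroxylase, whose product 25-hydroxycholesterol restrains SREBP, read 61, 149.8 and 60.6 in wild-type sham and 288.2, 259.8 and 298.9 after ischemia. It rose by 1.43 in wild-type (adjusted p = 0.00262) and by 1.04 in SUMO-KD mice (adjusted p = 0.0235), the latter lost without sham or ischemia replicate 1 or 2 of SUMO-KD mice (up to 0.0918) and with no offset (0.0552). Abcg4, a sterol exporter, fell by 0.36 in wild-type (adjusted p = 0.0317), a call lost without wild-type sham replicate 1 or 2 or any wild-type ischemia replicate (up to 0.103), with the wild-type groups fitted alone (0.0591), and when averaged over its probe sets (-0.20, adjusted p = 0.261). Fatty acid genes that SREBP also drives were measured through 11 of 12 genes, and none passed in either genotype, with medians of -0.09 and -0.03.

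**Figure D4:**
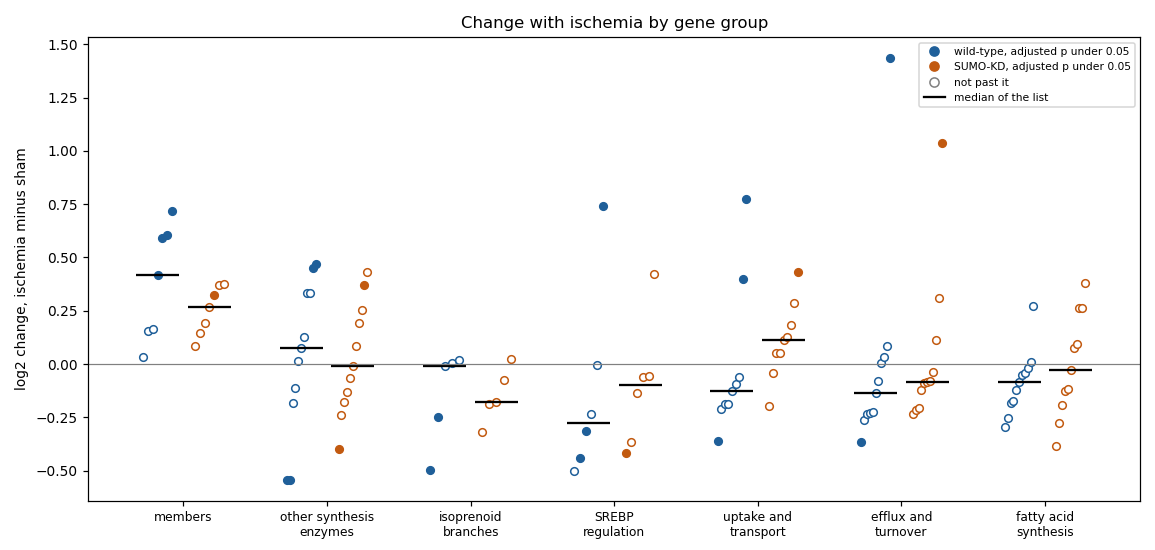
Change with ischemia (y axis, log2(intensity + 32)) of each measured gene in 7 groups (x axis), in wild-type and SUMO-KD mice, filled where the adjusted p was under 0.05, with a line at the median of the group. The 7 members have medians of 0.42 and 0.27, while those of the other groups lie between -0.28 and 0.11.

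Libraries and cell types were checked as far as they touch these genes. Sumo3 was lower in SUMO-KD than in wild-type mice, with differences of -0.58 in sham (adjusted p = 0.00963) and -0.82 after ischemia (adjusted p = 0.00152), on a probe set marked as shared with other transcripts. With such probe sets left out, Sumo3 differed by 0.05 and -0.10 (adjusted p = 0.881 and 0.695), so this check of the knockdown rests on that 1 probe set. The 18S ribosomal control (3′) ran from 5087 to 7569 in sham and from 2829 to 4127 in ischemia arrays other than SUMO-KD ischemia replicate 2, which had 6316. The 5′ control ran from 4194 to 6528 in sham and from 1275 to 1660 in the same 5 ischemia arrays, with 4127 in that array, so the gap between sham and ischemia was wider at the 5′ end. The control in the middle ran from 2194 to 4162 and from 968 to 1395, with 2591 in that array. SUMO-KD ischemia replicate 2 had the highest level of its group for Sqle, Cyp51 and Msmo1. It was nearly level with replicate 3 for Fdft1 (1415 against 1411.9) and Dhcr7 (434.7 against 433.8). Replicate 1 was highest for Hmgcs1 and Idi1. The share of all genes with replicate 2 highest was not counted. The part of this control's shift in the members' changes was not tested.

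Wfs1, a CA1 marker, averaged 2252, 1467, 1209 and 1164 in wild-type sham, wild-type ischemia, SUMO-KD sham and SUMO-KD ischemia. Markers of the dentate gyrus and CA3 averaged, in wild-type sham, 2172 for Spock1, 1485 for Dsp, 1323 for Bok, 1246 for Lct, 204 for Tdo2 and 50 for Prox1. The purity of the CA1 dissection was not tested. For the marker counts with ischemia below, the shares over all genes were 9.60% higher and 8.88% lower in wild-type. In SUMO-KD mice they were 6.09% higher and 4.62% lower. Of 7 measured markers of CA1 and other neurons, 2 fell in wild-type, Wfs1 by 0.60 (adjusted p = 0.0206) and Pou3f1 by 0.80 (adjusted p = 0.0468), and none passed in SUMO-KD mice. The Wfs1 call was lost without wild-type sham replicate 1 or wild-type ischemia replicate 3 (up to 0.0824), and that of Pou3f1 in 9 of 12 omissions (up to 0.165). Their summed intensity ran from 24876 to 27781 in wild-type sham, 22521 to 24831 in wild-type ischemia, 21585 to 23811 in SUMO-KD sham and 22350 to 24286 in SUMO-KD ischemia. Of 10 astrocyte markers, 1 rose in wild-type (Gfap, by 0.77, adjusted p = 0.00215) and 1 fell in SUMO-KD mice. Their sums ran from 23360 to 27014 and 22721 to 26649 in wild-type sham and ischemia, and from 27767 to 30198 and 25623 to 27789 in the SUMO-KD groups. In sham, where no member was called between genotypes, 2 of 10 astrocyte markers were called higher in SUMO-KD mice: Gfap (0.59, adjusted p = 0.0451) and Aqp4 (0.52, adjusted p = 0.0253). Over all genes, 2.10% were called either way there. In the same comparison, all 7 neuronal markers measured were lower in SUMO-KD mice, with a median of -0.29, and 1 was called, Wfs1 (-0.87, adjusted p = 0.0145). Oligodendrocyte markers were above 0 in 1 of 8 and endothelial markers in 1 of 8, with medians of -0.23 and -0.18. Dentate gyrus and CA3 markers were above 0 in 3 of 6 (median 0.16), with Tdo2 at 0.88 (adjusted p = 0.0625). No marker of these other types was called. The Wfs1 call was lost without wild-type sham replicate 1 or SUMO-KD sham replicate 3 (up to 0.0747) and with the 2 sham groups fitted alone (0.0536). The Gfap call was lost in 9 of 12 omissions of 1 array (up to 0.161), all but those of replicate 3 of wild-type sham and replicates 2 and 3 of wild-type ischemia, and that of Aqp4 was lost without wild-type sham replicate 1 or 2 or SUMO-KD sham replicate 2 or 3 (up to 0.124).

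Oligodendrocytes, the cells that make the most cholesterol for myelin, had 8 of 11 markers measured; 1 fell in wild-type (Ugt8a, by 0.97, adjusted p = 0.00182) and none passed in SUMO-KD mice. Their sums ran from 37624 to 41825 and 33985 to 38714 in wild-type sham and ischemia, and from 34613 to 39278 and 38781 to 40600 in the SUMO-KD groups. Microglial sums ran from 6044 to 6789 in wild-type sham and from 5269 to 5747 after ischemia. In SUMO-KD mice they ran from 6345 to 6603 and from 5098 to 5537. In each genotype 4 of 9 markers were lower and none higher. Over all genes, 8.88% were called lower in wild-type and 4.62% in SUMO-KD mice. In wild-type, markers of oligodendrocyte precursors were lower in 2 of 5, those of endothelial cells higher in 1 and lower in 2 of 8, and those of the dentate gyrus and CA3 higher in 1 and lower in 1 of 6. In SUMO-KD mice 2 of 5, 2 of 8 (1 higher) and 1 of 6 were lower. Sums of these types were lower after ischemia in both genotypes, with no overlap. Precursor sums ran from 4645 to 4917 in wild-type sham and from 3091 to 4012 after ischemia. In SUMO-KD mice they ran from 4289 to 5011 and from 3705 to 3803. Endothelial sums ran, in the same order, from 4323 to 4559, 3328 to 4041, 3800 to 4563 and 3212 to 3422. Those of the dentate gyrus and CA3 ran from 5933 to 7329, 5015 to 5644, 6220 to 7668 and 4773 to 5533. The part of these markers in the members' changes was not tested.

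By likeness of profile, the standardised log2 levels over the 12 arrays were compared with the mean standardised profile of the members, as a root mean square difference, for 7349 genes with a mean log2 level of at least 7. The median difference was 1.30. The nearest genes outside the 8 were Mrpl9 (0.26), Wdr1 (0.33), Scaf8 (0.34), Smndc1 (0.34) and Smn1 (0.34). Mrpl9 encodes a protein of the mitochondrial ribosome, Wdr1 an actin-disassembly factor, and Smn1 and Smndc1 factors of splicing. Members themselves stood at 0.34 for Msmo1, 0.38 for Cyp51, 0.39 for Dhcr7, 0.40 for Idi1, 0.71 for Hmgcs1, 0.85 for Fdft1 and 0.86 for Sqle. As a description, the changes of the 5 nearest genes with ischemia were 0.43 to 0.61 in wild-type and 0.35 to 0.41 in SUMO-KD mice.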

How the data were processed

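Deposited values were linear intensity, 1 value for each probe set on each array. Partek 6.6 and RMA appear in the submitters' processing notes with no role stated; the deposited intensity was not on RMA's log2 scale but had a trimmed mean of 500.2 on every array. How these values were derived, and the genome build, are not given in the sources. Median intensity ran from 141 to 162 over the arrays, and 22.4% to 28.6% of values lay below 32. The number of arrays limits the precision. Group means of log2(intensity + 32) were fitted to all 12 arrays with limma 3.58.1 in R 4.3.3, two-sided, with Benjamini-Hochberg adjustment over 12394 genes (20393 for probe sets) and calls at an adjusted p under 0.05. The procedure was tested on simulated data. Of 22690 probe sets, 691 list several genes and 1606 none; these named no gene. Members, lists, promoter motifs and tests were chosen with earlier results of these data known. Named genes were all members, up to 6 called genes per list, Sumo3 and the 5 nearest profiles; markers were named after their values were seen. Alternatives were other probe set choices, dim filters at log2 5 and 7, quantile normalization, median centring, other offsets, the replicate number as a block, the compared groups alone, trend and robust eBayes, array weights, and omission of each array.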

Additional observations from a re-analysis of the deposited data

How the results depend on the processing

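All changes tried left every member's called direction in place. The 4 wild-type rises passed in all 26 alternatives, with adjusted p up to 0.046 for Idi1, 0.021 for Cyp51, 0.0105 for Msmo1 and 0.0142 for Dhcr7. The 4 calls for the mean response passed in all 26 too. In SUMO-KD mice the number of members called, 1, moved: it was 0 with median centring, with the replicate block and with the compared groups alone; 2 with a mean over each gene's probe sets, a dim filter at 5, an offset of 64 or array weights; and 3 with a dim filter at 7 or trend and robust settings. Omitting 1 array gave 0 to 2. Cyp51 passed there in 9 of 26 alternatives and Msmo1 in 2. The labels do not say whether replicate numbers pair the samples. The 18 same-number correlations ran from -0.17 to 0.28 (median 0.0575), and 36 others from -0.36 to 0.34 (median -0.025). These ranges overlap and cannot settle it, so the block is given here only. With it, 1206 genes were called higher and 1091 lower for wild-type ischemia. Calls over all genes ran over the alternatives from 1548 to 2624 for wild-type ischemia (2291), 763 to 1911 for SUMO-KD ischemia (1328), 2685 to 3815 for the mean response (3312), 112 to 461 for genotype in sham (260), 48 to 331 for genotype after ischemia (193) and 0 to 5 for the interaction (2). With shared probe sets left out, the Sumo3 difference in sham reversed to 0.0488 (adjusted p = 0.881). Of the counts over the gene lists under these alternatives, 532 stayed within 1.5 times the value given and 92 did not. Probe sets below an intensity of 32 limit what can be read.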

Other observations

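Between genotypes in sham, 1 of 11 genes of efflux and turnover and 1 of 11 fatty acid genes were called, against 2.10% of all genes. Mylip, the ubiquitin ligase that marks lipoprotein receptors for degradation, was lower in SUMO-KD arrays, with a difference of -0.62 (adjusted p = 0.0134), a call lost without wild-type sham replicate 1 (adjusted p = 0.0566) and with the sham groups fitted alone (0.0828). Elovl6, a fatty acid elongase, differed by -0.45 (adjusted p = 0.0401), a call lost in 8 of 12 omissions of 1 array (up to 0.172). Fads1 and Fads2, the fatty acid desaturases, differed by 0.39 and 0.51 without passing (adjusted p = 0.0535 and 0.0517). After ischemia, Scap was higher in SUMO-KD than in wild-type mice by 0.44 (adjusted p = 0.0446), and that call was lost in all 12 omissions of 1 array (up to 0.152). After ischemia, Mylip differed by -0.24 (adjusted p = 0.315) and Elovl6 by 0.11 (adjusted p = 0.664).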
